A study of Mus musculus with 12 samples.

Results

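The T cell antigen receptor (TCR) passes its signal through a small set of kinases, adaptors, phosphatases, ubiquitin ligases and calcium channels just inside the plasma membrane. The genes described here are 44 such proximal TCR signalling genes, picked by symbol for their known place in the pathway, out of 49585 genes in the count table. These genes and the wider list below were chosen with earlier results of these data known. Shares of calls among them are therefore not independent of the data. All 44 were among the 13118 genes that passed a filter on low counts. When the receptor binds peptide and MHC, Lck, which CD4 and CD8 coreceptors carry to the complex, phosphorylates the receptor chains and the recruited kinase Zap70. Zap70 then phosphorylates the scaffolds Lat and SLP-76 (gene Lcp2), on which Plcg1, Vav1 and Ras exchange factors assemble, and from there calcium, NF-κB and Ras signals run to the nucleus. Phosphatases, ubiquitin ligases and lipid kinases limit these steps, and helper (CD4) and cytotoxic (CD8) T cells of lymph nodes both depend on them.

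RNA-seq was performed on T cells from lymph nodes of male mice 6 to 10 weeks old, in 4 groups of 3 samples. The methods of the study report mice of both sexes for the study as a whole. C57BL/6 mice gave CD4+ cells (B6 CD4) and CD8+ cells (B6 CD8). CD8 Dual mice, called 8in4 in the labels, make no CD4 protein: both of their Cd4 alleles produce CD8α.1 and CD8β, and their native Cd8 alleles produce CD8 with the CD8α.2 variant. Cells from CD8 Dual mice were sorted as CD8.1+ (CD8.1, the Cd4-encoded coreceptor) or CD8.2+ (CD8.2, the Cd8-encoded coreceptor), and in all 4 groups as TCRβ+ (antibody H57) and CD62L+, to which the methods of the study, but not the labels, add a gate on CD44-negative cells. RNA came from pooled sorted cells, and no source used here says that the replicates of a group were separate animals, so that P values measure the spread between these samples, which may be technical. The 4 groups allow the 2 T cell types to be compared within each strain, which asks how the genes differ between helper and cytotoxic cells with the usual coreceptors and when both types carry CD8, and each type to be compared between the strains.

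Total counts ran from 18667474 in CD8.2 replicate 2 to 37110502 in CD8.2 replicate 3, and 3 counts corresponded to 0.0875 to 0.167 CPM (counts scaled to library size), a limit that covers counting error only. Sorted cells carried T cell markers, and the summed level of 10 T cell marker genes was 5882 ± 339.6 CPM in B6 CD4 samples, 4982 ± 104 in B6 CD8 samples, 5905 ± 502 in CD8.1 samples and 4940 ± 70.1 in CD8.2 samples (mean ± SD, n = 3). The coreceptor genes were set beside the labels. Cd4 averaged 969, 0.244, 49.7 and 1.47 CPM (B6 CD4 first, then B6 CD8, then CD8.1, then CD8.2), and Cd8a averaged 1.17, 1423, 192 and 1460 CPM in the same order. Zbtb7b, which encodes the helper lineage factor ThPOK, averaged 159, 0.931, 154 and 1.91 CPM, and Runx3, the cytotoxic lineage factor, averaged 57, 102, 47.5 and 74.2 CPM. On correlation across genes, CD8.1 replicate 1 stood apart from its group. CD8.1 replicate 1 correlated with the other CD8.1 samples at 0.982 and 0.982 across genes, against 0.988 between those samples. The SD of its deviations from the group mean over the 44 genes was 0.167 on the log2 scale, against 0.0396 to 0.112 in the other 11 samples. On a chi-square of the raw counts per gene, which weighs abundant genes most, CD8.2 replicate 3, the deepest library, lay farthest from its group, at 83.7 and 55.1 against 13 between the other CD8.2 samples, with 30.4 and 31.7 for CD8.1 replicate 1. CD8.2 replicate 3 correlated with its group at 0.992 and 0.992, and over the 44 genes its SD of deviations was the lowest of the 12 samples. Counts over all 44 members called in comparisons that use these libraries are given with and without them, while counts by role use all libraries.

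Per length of annotated exons, Lck was the most abundant of the 44 transcripts in every group, at a mean of 353, 343, 316 and 317 RPKM (CPM per kilobase of exon), the groups being listed as B6 CD4, then B6 CD8, then CD8.1, then CD8.2. Lat, the membrane scaffold, came next in all 4 groups on this length, at 204, 170, 183 and 166 RPKM. Dgka, a diacylglycerol kinase that dampens Ras signalling, reached 141, 116, 110.2 and 107 RPKM, and Csk, the kinase that keeps Lck inactive, reached 124, 107, 134 and 107 RPKM. At the other end, the Ras exchange factor Sos1 was the least abundant in every group at 2.86, 3.66, 2.90 and 3.15 RPKM, and on this length the NF-κB paracaspase Malt1 (4.17, 5.32, 3.99 and 4.65 RPKM) was among the lowest 3. The median over the 44 genes was 26.2, 28.7, 23.8 and 24.9 RPKM. With the length of the longest transcript in place of all exons, the rank correlation of the 44 levels with those above was 0.942 to 0.949 and 6 or 7 of the 10 highest genes were shared. On that second length Lck stayed the highest and Sos1 the lowest in every group, but Ptprc, the phosphatase CD45, passed Lat in B6 CD8 (313 against 229 RPKM) and CD8.2 (264 against 223 RPKM). Malt1 left the lowest 3, at 11.2 RPKM or more.

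Between helper and cytotoxic cells of B6 mice, 13 of the 44 members (29.5%) passed the quasi-likelihood test of edgeR, adjusted by the Benjamini-Hochberg method over all 13118 genes at an adjusted P under 0.05 (edgeR adjusted P from here on), beside 23.1% of all genes. Of these 13, 3 were higher in B6 CD4 (11.4% of all genes) and 10 were lower (11.7% of all genes). Between CD8.1 and CD8.2, 17 members (38.6%) passed, beside 28.7% of all genes, with 6 higher in CD8.1 (14.9% of all genes) and 11 lower (13.8% of all genes). An adjusted P under 0.05 together with a fold of at least 1.5 was met by 5 of the members in each comparison, beside 13.1% of all genes in B6 and 14.7% in CD8 Dual under the same rule. None of the members met the limits of the study, a fold above 5 with a P under 0.05 (taken here as unadjusted), which 3.29% and 3.32% of all genes met. In each comparison 21 members had an unadjusted P under 0.05, beside 33% of all genes in B6 and 39.5% in CD8 Dual. At an adjusted P under 0.05, DESeq2 called 16 and 19 members (24.7% and 30.3% of all genes) and limma-voom 13 and 17 (23.3% and 29.5%). The median absolute log2 fold change of the members was 0.155 in B6 and 0.171 in CD8 Dual, against 0.199 and 0.243 over all genes tested. These comparisons share no samples, and 9 members passed in both and in the same direction, which is 69.2% of the B6 calls and 52.9% of the CD8 Dual calls, beside 68.5% and 55% of the calls over all genes, of which 2075 of the 2102 called in both had the same direction. Over the 44 genes, which share samples and pathways, the 2 sets of log2 fold changes correlated at 0.855, beside 0.767 over all genes tested. Without CD8.1 replicate 1, 25 members passed between CD8.1 and CD8.2 (12 higher and 13 lower), beside 37.4% of all genes, and without CD8.2 replicate 3, 13 passed, beside 19.6% of all genes. In bulk RNA, fewer cells of a type and less RNA per cell cannot be told apart.

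**Figure D1:**
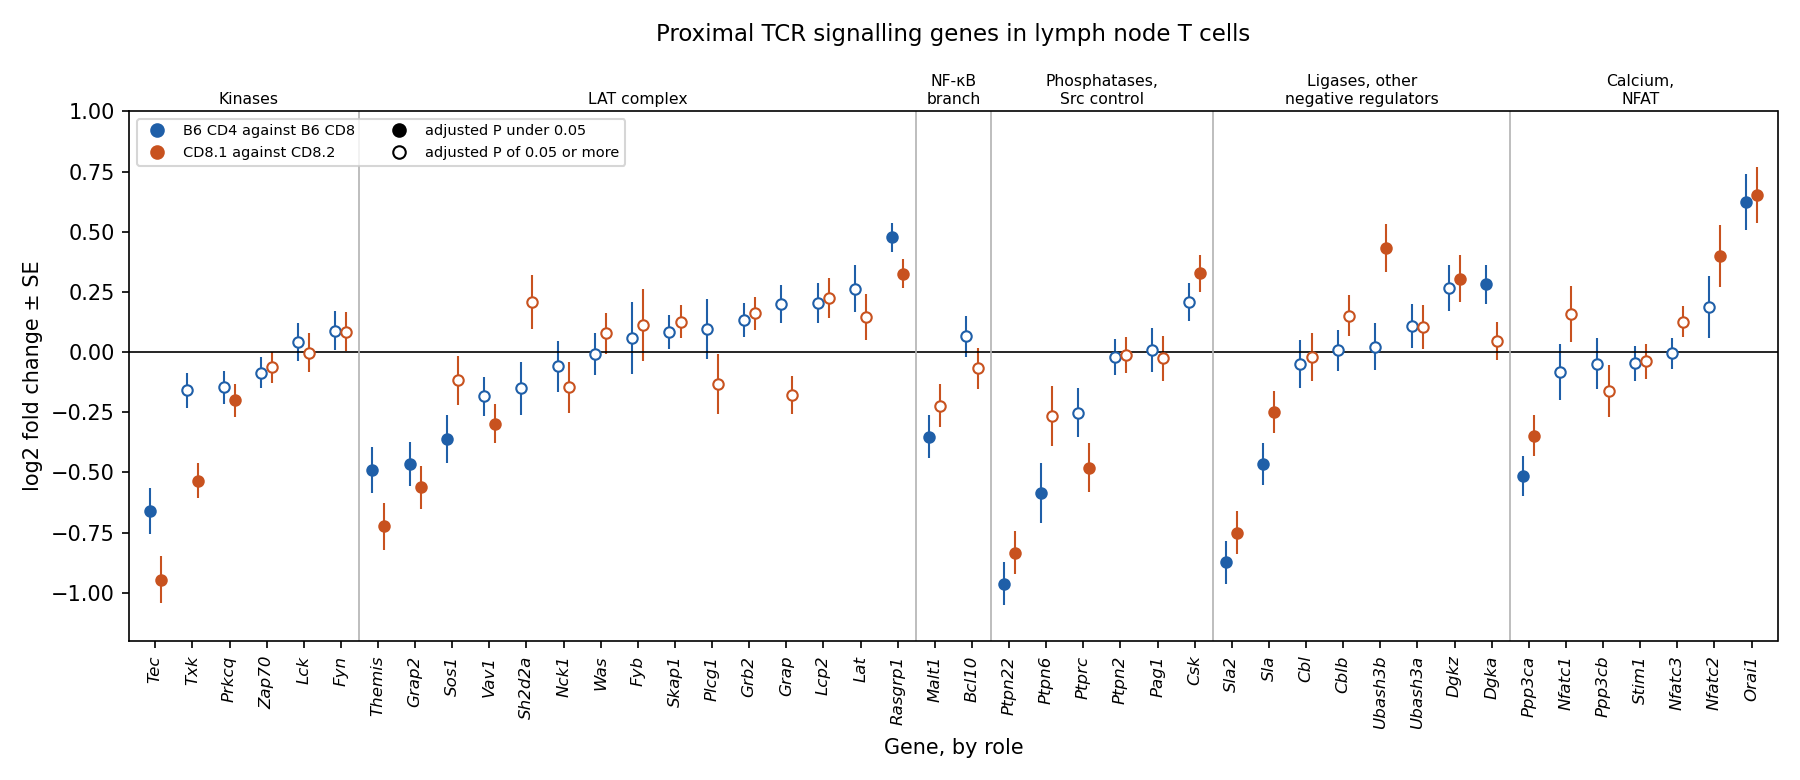
log2 fold changes (points) with 1 standard error (bars) of the 44 genes, grouped by role, for B6 CD4 against B6 CD8 (blue) and CD8.1 against CD8.2 (orange), n = 3 samples per group. Filled points had an adjusted P under 0.05, 13 in B6 and 17 in CD8 Dual. Ptpn22, Sla2 and Tec lie lowest in both comparisons and Orai1 lies highest in both.

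Markers of T cell subsets and of other cells are given as sums for each sample. Regulatory T cell markers (10 of 10 genes tested, Tnfrsf18 the most abundant except in CD8.1, where Foxp3 was) summed to 236, 275 and 342 CPM in B6 CD4 samples, 80.7, 85.2 and 85.5 in B6 CD8 samples, 630.3, 702 and 669.6 in CD8.1 samples and 87.2, 87.0 and 84.3 in CD8.2 samples. They were lowest in the cytotoxic groups and highest in CD8.1, with no overlap between B6 CD4 and CD8.1, and Foxp3, which defines that subset, averaged 38.3, 0.333, 139.7 and 1.24 CPM. Memory or activation markers (7 of 8 tested, Ly6c2 the most abundant in the cytotoxic groups and Il2rb in the helper groups) summed to 205, 224 and 254 CPM in B6 CD4 samples, 1420, 1474 and 1816 in B6 CD8 samples, 475, 462 and 417 in CD8.1 samples and 1030, 1083 and 1055 in CD8.2 samples. NK cell markers (5 of 6 tested, Nkg7 the most abundant) summed to 4.46, 4.66 and 8.46 CPM in B6 CD4 samples, 501, 542 and 563 in B6 CD8 samples, 12.5, 14.7 and 10.8 in CD8.1 samples and 378, 442 and 423 in CD8.2 samples. Both sums were higher in the cytotoxic groups than in any helper sample, while Ncr1, which defines NK cells, stayed at or under 0.345 CPM in all 12 samples. Of the memory or activation list, Cd44 (log2 fold change 0.38, edgeR adjusted P = 0.0211) and Gzmb (2.62, 3.09e-05) were higher in CD8.1 than CD8.2 cells. Ly6c2, Il2rb, Cxcr3 and Eomes were lower in that comparison, and Cd69 did not pass. B cell markers (8 of 8 tested, Cd79b the most abundant in the cytotoxic groups and Cd79a in the helper groups) summed to 79.8, 85.3 and 98.5 CPM in B6 CD4 samples, 78.4, 63.5 and 71.6 in B6 CD8 samples, 169.7, 168 and 110.4 in CD8.1 samples and 126, 137 and 75.5 in CD8.2 samples, and overlapped between CD8.1 and CD8.2. Myeloid markers (8 of 8 genes tested, Cst3 the most abundant) summed to 66.3, 82.2 and 80.9 CPM in B6 CD4 samples, 84.0, 85.3 and 80.9 in B6 CD8 samples, 101, 109 and 99.6 in CD8.1 samples and 86.0, 105 and 80.9 in CD8.2 samples, and overlapped between helper and cytotoxic groups in both strains. Single markers of that list did pass: Itgam was higher and Itgax lower in helper cells of both strains, Cd68 was lower in B6 CD4 and Fcer1g higher in CD8.1 than CD8.2 cells. The symbol Itgam had 2 entries, of which 1 was at 0 in all samples and the other at or under 1.21 CPM, and no other marker was at 0 throughout. The part of these markers in the results on the signalling genes was not tested.

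Among the kinases, the 3 that start the cascade did not pass the test in any comparison, while Tec was lower in helper cells of both strains and Txk in those of CD8 Dual mice. Lck, the coreceptor-bound Src kinase, was at 1033, 1101 and 968 CPM in B6 CD4 samples, 1043, 1059.5 and 908 in B6 CD8 samples, 854, 963 and 961 in CD8.1 samples and 906, 964 and 912 in CD8.2 samples, samples being given here and below in the order of replicates 1 to 3. Lck overlapped between the helper and the cytotoxic groups in both strains. Its log2 fold change was 0.043 in B6 (95% interval −0.13 to 0.21) and −0.0021 between CD8.1 and CD8.2 (−0.17 to 0.17). Fyn, the other Src kinase of T cells, was at 299, 314 and 267 CPM in B6 CD4 samples, 275, 292 and 261 in B6 CD8 samples, 243, 268 and 285 in CD8.1 samples and 263, 247 and 242 in CD8.2 samples. Its groups overlapped in every comparison, with a log2 fold change of 0.089 in B6 (−0.083 to 0.26) and 0.084 in CD8 Dual (−0.089 to 0.26). Zap70, the kinase that binds the phosphorylated receptor, was at 206, 199 and 197 CPM in B6 CD4 samples, 220.4, 211 and 207 in B6 CD8 samples, 177, 189.8 and 198 in CD8.1 samples and 195, 199 and 196 in CD8.2 samples. Every B6 CD4 sample was below every B6 CD8 sample, and the CD8 Dual groups overlapped, with log2 fold changes of −0.085 (−0.22 to 0.053) and −0.064 (−0.20 to 0.074).

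Tec, a kinase that acts on Plcg1, was at 15.9, 17.5 and 14.8 CPM in B6 CD4 samples, 25.4, 25.1 and 25.7 in B6 CD8 samples, 18.0, 14.4 and 15.8 in CD8.1 samples and 31.5, 31.4 and 29.8 in CD8.2 samples. All 6 helper samples were below all 6 cytotoxic samples, with a log2 fold change of −0.66 (SE 0.0969, edgeR adjusted P = 0.000101) in B6 and −0.94 (SE 0.0969, edgeR adjusted P = 3.15e-06) in CD8 Dual. Without CD8.1 replicate 1 the CD8 Dual value was −1.05. Txk, the resting lymphocyte kinase of the same family, lies next to Tec on chromosome 5 on the same strand (Tec at chr5:72755716-72868483 and Txk at chr5:72695978-72752777, GRCm38). Txk was lower in CD8.1 than CD8.2 cells, with a log2 fold change of −0.54 (SE 0.0724, edgeR adjusted P = 5.23e-05), and gave −0.16 in B6 (−0.31 to −0.0054). Prkcq, the protein kinase C isoform of the synapse, was lower in CD8.1 by a log2 fold change of −0.20 (SE 0.0687, edgeR adjusted P = 0.0407). This call was lost without CD8.1 replicate 2 (edgeR adjusted P = 0.0687), CD8.2 replicate 1 (0.0986) or CD8.2 replicate 3 (0.0996). The Prkcq call was also lost in a fit of CD8.1 and CD8.2 alone (0.0947), with no filter on low counts (0.0747) and with a filter at 1 CPM (0.0503). Of the 6 kinases, 1 passed in B6 and 3 passed in CD8 Dual, beside 23.1% and 28.7% of all genes, and those that passed were lower in helper cells.

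**Figure D2:**
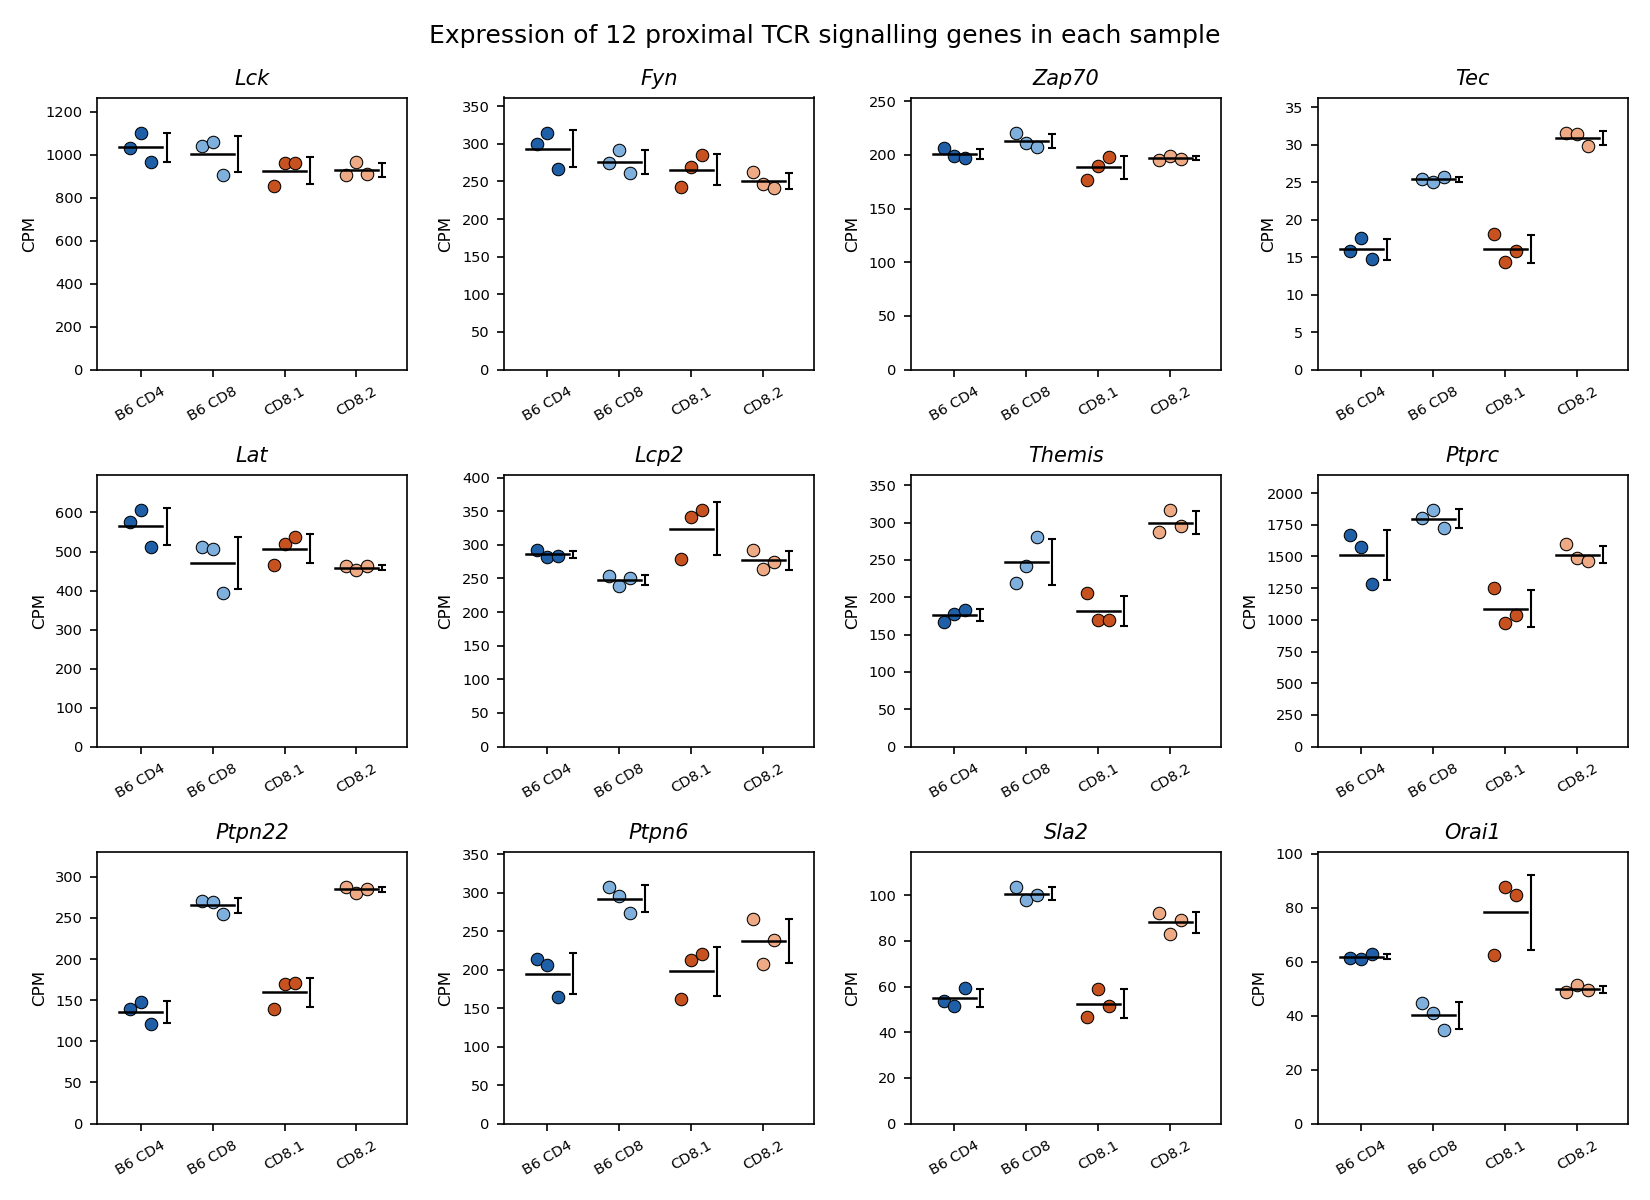
CPM in each sample (points, replicates 1 to 3 from left to right) of 12 genes in the 4 groups, B6 cells to the left, with the group mean (line) and SD (bar, n = 3). Every axis starts at 0. Tec, Themis, Ptpn22 and Sla2 are lower in all helper samples than in all cytotoxic samples, Orai1 is higher, and Lck and Fyn overlap between helper and cytotoxic groups of both strains.

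Of the 15 adaptors and exchange factors at the LAT complex, 4 passed in each lineage comparison (26.7%, beside 23.1% of all genes in B6 and 28.7% in CD8 Dual), with Rasgrp1 higher in helper cells and 3 genes lower in each. Without CD8.1 replicate 1, Lcp2, Sh2d2a, Skap1 and Fyb were added in CD8 Dual, all higher in CD8.1, beside 37.4% of all genes. Lat was at 575, 606 and 512 CPM in B6 CD4 samples, 511, 507 and 394 in B6 CD8 samples, 466, 518 and 537 in CD8.1 samples and 462, 451 and 463 in CD8.2 samples. Every helper sample was above the cytotoxic samples of its own strain, with log2 fold changes of 0.26 in B6 (95% interval 0.057 to 0.47, edgeR adjusted P = 0.0642) and 0.15 in CD8 Dual (−0.062 to 0.35). With the replicate number as a block, which treats same-numbered B6 samples as pairs, Lat passed (log2 fold change 0.27, edgeR adjusted P = 0.0134). That pairing was inferred from correlations in these same data. Lat also passed without B6 CD4 replicate 3 (0.33, adjusted P = 0.0339). Over the fits without 1 library, Lat in B6 ran from 0.15 to 0.33, with edgeR adjusted P up to 0.281. Lcp2, which encodes the adaptor SLP-76, was at 292, 282 and 283 CPM in B6 CD4 samples, 254, 239 and 251 in B6 CD8 samples, 279, 341 and 352 in CD8.1 samples and 292, 264 and 275 in CD8.2 samples. The B6 groups did not overlap and the CD8 Dual groups did, with CD8.1 replicate 1 the lowest of its group. Lcp2 gave 0.21 in B6 (0.030 to 0.38, edgeR adjusted P = 0.09) and 0.23 in CD8 Dual (0.050 to 0.40, adjusted P = 0.0523), and passed in CD8 Dual without CD8.1 replicate 1 (0.31, adjusted P = 0.0011).

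Themis, an adaptor of developing T cells that binds Grb2 and the phosphatase SHP-1, was at 167, 178 and 183 CPM in B6 CD4 samples, 219, 242 and 281 in B6 CD8 samples, 205, 170.1 and 169.7 in CD8.1 samples and 287, 317 and 296 in CD8.2 samples. Both helper groups were below both cytotoxic groups in every sample, with a log2 fold change of −0.49 (SE 0.0961, edgeR adjusted P = 0.00132) in B6 and −0.72 (SE 0.0963, edgeR adjusted P = 4.44e-05) in CD8 Dual, or −0.84 without CD8.1 replicate 1. Grap2, the adaptor Gads that joins Lat to SLP-76, was lower in helper cells of both strains, with log2 fold changes of −0.46 and −0.56 (edgeR adjusted P = 0.00114 and 0.000252). Rasgrp1, the diacylglycerol-dependent Ras activator, was higher, with log2 fold changes of 0.48 and 0.33 (edgeR adjusted P = 2.11e-05 and 0.000783). Sos1, the Grb2-bound Ras activator, was lower in B6 CD4 (−0.36, SE 0.0998, edgeR adjusted P = 0.0153). The call was lost without B6 CD4 replicate 2 (adjusted P = 0.0845), B6 CD4 replicate 3 (0.0728) or B6 CD8 replicate 2 (0.0754). Vav1, a guanine nucleotide exchange factor, was lower in CD8.1 (−0.30, SE 0.081, edgeR adjusted P = 0.0126). That call was lost without CD8.2 replicate 1 (adjusted P = 0.0502). The remaining 8 genes, Plcg1, Grb2, Grap, Was, Nck1, Skap1, Sh2d2a and Fyb, passed in neither comparison, with log2 fold changes from −0.18 (Grap in CD8 Dual) to 0.21 (Sh2d2a in CD8 Dual). Without CD8.1 replicate 1, Sh2d2a (edgeR adjusted P = 0.00156), Skap1 (0.0197) and Fyb (0.0173) passed in CD8 Dual as higher in CD8.1, and without CD8.2 replicate 2 Grap passed as lower (0.0419).

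The NF-κB branch was represented by Bcl10 and Malt1, partners in the complex that activates the IκB kinases. Malt1 was lower in B6 CD4 than in B6 CD8, with a log2 fold change of −0.35 (SE 0.088, edgeR adjusted P = 0.00815). This call was lost without B6 CD4 replicate 2 (edgeR adjusted P = 0.0604). In CD8 Dual it gave −0.22 (−0.41 to −0.035), and passed without CD8.1 replicate 1 (edgeR adjusted P = 0.0487). Bcl10 gave 0.065 (−0.11 to 0.24) and −0.068 (−0.25 to 0.11).

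The phosphatases and the regulators of Src kinases gave the member with the lowest log2 fold change in B6. Ptpn22, a phosphatase that removes activating phosphates from Lck and Zap70, was at 139.9, 147 and 121 CPM in B6 CD4 samples, 271, 269.5 and 255 in B6 CD8 samples, 139, 169 and 170.4 in CD8.1 samples and 288, 281 and 285 in CD8.2 samples. All cytotoxic samples were above all helper samples, with a log2 fold change of −0.96 (SE 0.0882, edgeR adjusted P = 6.94e-07) in B6 and −0.83 (SE 0.0879, edgeR adjusted P = 4.27e-06) in CD8 Dual, or −0.76 without CD8.1 replicate 1. Ptpn6, which encodes the phosphatase SHP-1, was at 213, 206 and 164 CPM in B6 CD4 samples, 307, 295 and 273 in B6 CD8 samples, 161, 212 and 219.7 in CD8.1 samples and 265, 208 and 239 in CD8.2 samples. The B6 groups did not overlap and Ptpn6 was lower in B6 CD4 (−0.59, SE 0.124, edgeR adjusted P = 0.00246), whereas CD8.1 and CD8.2 overlapped, with −0.26 (−0.53 to 0.00047, edgeR adjusted P = 0.127). The difference between these effects was 0.32 (−0.052 to 0.70, edgeR adjusted P = 0.457).

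Ptprc, which encodes the phosphatase CD45 that opens Lck for activity, was at 1666, 1578 and 1285 CPM in B6 CD4 samples, 1806, 1866 and 1722 in B6 CD8 samples, 1252, 972 and 1035 in CD8.1 samples and 1596, 1486 and 1464 in CD8.2 samples. Helper samples were below the cytotoxic samples of their own strain, and CD8.1 was the lowest of the 4 groups in every sample. Ptprc was lower in CD8.1 than CD8.2 cells (−0.48, SE 0.102, edgeR adjusted P = 0.00254), or −0.61 without CD8.1 replicate 1. In B6 it gave −0.25 (−0.47 to −0.034, edgeR adjusted P = 0.0932), and passed with the replicate number as a block (−0.26, adjusted P = 0.0241). Without 1 library at a time, Ptprc in B6 ran from −0.34 to −0.14, with edgeR adjusted P from 0.0539 to 0.413. Csk was higher in CD8.1 than CD8.2 cells (0.33, SE 0.0783, edgeR adjusted P = 0.00573) and gave 0.21 in B6 (0.041 to 0.37). Pag1, the membrane anchor of Csk, gave 0.0081 and −0.026, and Ptpn2, a phosphatase of Src and Jak kinases, gave −0.020 and −0.013, and neither passed in a lineage comparison. Of these 6 genes, 2 passed in B6 and 3 in CD8 Dual, beside 23.1% and 28.7% of all genes.

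Of the 8 ubiquitin ligases and other negative regulators, 3 passed in B6 and 4 in CD8 Dual, beside 23.1% and 28.7% of all genes. Sla2, a Src-like adaptor that promotes loss of receptor chains, was at 53.8, 51.6 and 59.5 CPM in B6 CD4 samples, 104, 98.0 and 100.3 in B6 CD8 samples, 46.5, 59.1 and 51.6 in CD8.1 samples and 92.1, 83.0 and 89.3 in CD8.2 samples. Cytotoxic samples were all above helper samples, with a log2 fold change of −0.87 (SE 0.0899, edgeR adjusted P = 2.69e-06) in B6 and −0.75 (SE 0.0901, edgeR adjusted P = 1.62e-05) in CD8 Dual, or −0.69 without CD8.1 replicate 1. Annotated exons of Sla2 share 731 bases (23.6%) with the gene 1110008F13Rik on the other strand, and whether the counts used strand is not stated, so that reads in the shared bases cannot be told apart. The partner gene averaged 77.6, 81.9, 90.1 and 95.2 CPM, with a log2 fold change of −0.077 in B6 and −0.079 in CD8 Dual, and did not pass. Sla, the related adaptor that acts with Cbl, was lower in B6 CD4 (−0.46, SE 0.0871, edgeR adjusted P = 0.000928). In CD8.1 it was lower by −0.25 (SE 0.0871, edgeR adjusted P = 0.0425). The call was lost without CD8.1 replicate 2 (adjusted P = 0.072), CD8.1 replicate 3 (0.15), CD8.2 replicate 1 (0.126), CD8.2 replicate 2 (0.0693) or CD8.2 replicate 3 (0.0788), in a fit of CD8.1 and CD8.2 alone (0.0641) or with a filter at 1 CPM (0.057).

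The calls among lipid kinases that consume diacylglycerol were in the other direction, 1 in each strain. Dgka was higher in B6 CD4 than in B6 CD8 (0.28, SE 0.0805, edgeR adjusted P = 0.0183). That call was lost without B6 CD4 replicate 1 (edgeR adjusted P = 0.0806), B6 CD4 replicate 2 (0.0507), B6 CD8 replicate 2 (0.0574) or B6 CD8 replicate 3 (0.0867). In CD8 Dual the samples overlapped for Dgka, with −0.022 to 0.10 over the fits without 1 library. Dgkz was higher in CD8.1 than CD8.2 cells (0.31, SE 0.0971, edgeR adjusted P = 0.028). This call was lost without CD8.1 replicate 2 (adjusted P = 0.134), CD8.1 replicate 3 (0.104), CD8.2 replicate 2 (0.106) or CD8.2 replicate 3 (0.0974) and in a fit of CD8.1 and CD8.2 alone (0.0606). For Dgkz every B6 CD4 sample was above every B6 CD8 sample. Its log2 fold change in B6 was 0.21 to 0.30 over the fits without 1 library, none of which called it. Ubash3b, the phosphatase Sts-1 that acts on Zap70, was higher in CD8.1 than CD8.2 cells (0.43, SE 0.0996, edgeR adjusted P = 0.00438) and gave 0.022 in B6 (−0.19 to 0.23). Its paralog Ubash3a gave 0.11 and 0.10, and passed in CD8 Dual without CD8.1 replicate 1 (edgeR adjusted P = 0.0227). The ubiquitin ligases Cbl (−0.050 and −0.020) and Cblb (0.0068 and 0.15) passed in neither.

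In the calcium and NFAT group of 7 genes, 2 passed in B6 and 3 in CD8 Dual, beside 23.1% and 28.7% of all genes. Without CD8.1 replicate 1, Nfatc1 and Ppp3cb were added in CD8 Dual, beside 37.4% of all genes. Orai1, the pore of the store-operated calcium channel, was at 61.4, 61.2 and 62.9 CPM in B6 CD4 samples, 44.7, 40.9 and 34.8 in B6 CD8 samples, 62.5, 87.7 and 84.9 in CD8.1 samples and 48.9, 51.3 and 49.4 in CD8.2 samples. Helper samples were above the cytotoxic samples of both strains, and CD8.1 replicate 1 lay with the B6 CD4 samples below the rest of its group. Orai1 was higher in helper cells by a log2 fold change of 0.62 (SE 0.116, edgeR adjusted P = 0.000872) in B6 and 0.65 (SE 0.115, edgeR adjusted P = 0.000579) in CD8 Dual, or 0.78 without CD8.1 replicate 1. Stim1, the calcium sensor of the endoplasmic reticulum that opens Orai1, gave −0.046 (−0.20 to 0.11) and −0.039 (−0.19 to 0.12). Ppp3ca, a catalytic subunit of calcineurin, was lower in helper cells, by −0.51 (SE 0.0838, edgeR adjusted P = 0.000274) in B6 and −0.35 (SE 0.0844, edgeR adjusted P = 0.00627) in CD8 Dual. Its paralog Ppp3cb gave −0.048 and −0.16, and passed in CD8 Dual without CD8.1 replicate 1 (edgeR adjusted P = 0.00112). Of the NFAT factors that calcineurin activates, Nfatc2 was higher in CD8.1 than CD8.2 cells (0.40, SE 0.129, edgeR adjusted P = 0.0314). The call was lost without CD8.1 replicate 2 (adjusted P = 0.0675), CD8.1 replicate 3 (0.183), CD8.2 replicate 1 (0.141), CD8.2 replicate 2 (0.0599) or CD8.2 replicate 3 (0.052) and in a fit of CD8.1 and CD8.2 alone (0.0676). The log2 fold change of Nfatc2 ran from 0.22 (without CD8.1 replicate 3) to 0.53 over the fits without 1 library. Nfatc1 passed in CD8 Dual without CD8.1 replicate 1 (edgeR adjusted P = 0.01), and Nfatc3 gave −0.0045 in B6 and 0.13 in CD8 Dual.

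Helper cells of the 2 strains were compared next, with Cd4-encoded CD8 in one and CD4 in the other. In the library names, all B6 libraries are numbered before all CD8 Dual libraries. Strain and library number therefore cannot be told apart in any comparison between strains. Of the 44 members, 6 (13.6%) passed between CD8.1 and B6 CD4, beside 12.8% of all genes, and all 6 were lower in CD8.1 (5.82% of all genes) and none higher (6.94% of all genes). An unadjusted P under 0.05 was found for 13 members (28.7% of all genes), and DESeq2 called 8, of which 1 was higher (16% of all genes), and limma-voom 6 (12.9%). By the test of edgeR, 0 of the members passed with a fold of at least 1.5, which 6.08% of all genes did. Rasgrp1 was lower by −0.37 (SE 0.0597, edgeR adjusted P = 0.00144), Txk by −0.30 (SE 0.0724, edgeR adjusted P = 0.0139) and Dgka by −0.36 (SE 0.0806, edgeR adjusted P = 0.0107), and these 3 calls held when any 1 library of the comparison was left out. In a fit of CD8.1 and B6 CD4 alone, 1 of the members passed, beside 5.34% of all genes: Rasgrp1 (0.0278) passed, while Txk (0.074), Dgka (0.0506), Ptprc (0.0547), Plcg1 (0.0612) and Pag1 (0.122) did not (edgeR adjusted P). Ptprc was lower by −0.48 (SE 0.102, edgeR adjusted P = 0.00854). That call was lost without B6 CD4 replicate 1 (adjusted P = 0.0516). Plcg1, the phospholipase that makes diacylglycerol and the calcium signal, was lower by −0.49 (SE 0.125, edgeR adjusted P = 0.0205), lost without B6 CD4 replicate 1 (0.101), B6 CD4 replicate 2 (0.0668) or CD8.1 replicate 2 (0.0666), and Plcg1 shares 6.68% of its exon bases with genes on the other strand, of which Zhx3 was lower in the same comparison (−0.50). Pag1 was lower by −0.33 (SE 0.0918, edgeR adjusted P = 0.0303), lost without B6 CD4 replicate 1 (0.141), B6 CD4 replicate 2 (0.0621), CD8.1 replicate 2 (0.108) or CD8.1 replicate 3 (0.0683). The count of members was 3 without B6 CD4 replicate 1, beside 5.69% of all genes, and without CD8.1 replicate 1 it was 12 (5 higher and 7 lower), beside 22.1% of all genes. The calls added without CD8.1 replicate 1 were Orai1 (log2 fold change 0.47), Ptpn22 (0.31), Nfatc1 (0.27), Lcp2 (0.27), Csk (0.19) and Ppp3cb (−0.31), with edgeR adjusted P from 0.00201 to 0.0279. Grap2 passed as lower without B6 CD4 replicate 3 (adjusted P = 0.0167) or CD8.1 replicate 3 (0.0451). Lck gave −0.16 (−0.33 to 0.010), Fyn −0.14 (−0.32 to 0.029) and Zap70 −0.092 (−0.23 to 0.046). For Lck every CD8.1 sample was below every B6 CD4 sample, while Fyn and Zap70 overlapped. Summed markers of regulatory T cells (mean 284 CPM in B6 CD4 and 667 CPM in CD8.1), of memory or activation (228 and 451), of B cells (87.9 and 149) and of myeloid cells (76.5 and 103) were higher in every CD8.1 sample than in every B6 CD4 sample, as were those of NK cells (5.86 and 12.7), and their part in this comparison was not tested.

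Cytotoxic cells of the 2 strains both used Cd8-encoded CD8. Of the members, 3 (6.82%) passed between CD8.2 and B6 CD8, beside 7.94% of all genes, and all were lower in CD8.2 (4.66% of all genes) with none higher (3.29%). By the test of edgeR, 0 of the members passed with a fold of at least 1.5, which 3.66% of all genes did, and 17 had an unadjusted P under 0.05 (23.7% of all genes), while DESeq2 called 6 (11.3%) and limma-voom 4 (8.54%). Rasgrp1 was lower by −0.22 (SE 0.0597, edgeR adjusted P = 0.0366), Ppp3ca by −0.32 (SE 0.0834, edgeR adjusted P = 0.028) and Ubash3b by −0.41 (SE 0.0994, edgeR adjusted P = 0.0217). With no filter on low counts 8 passed (3 higher and 5 lower, 6.8% of all genes), with a filter at 1 CPM 5 (all lower, 9.2%), and in a fit of CD8.2 and B6 CD8 alone 16 (4 higher and 12 lower, 20.3%). Rasgrp1 was lost with no filter (edgeR adjusted P = 0.16). None of the 3 calls held in every leave-one-out fit. Rasgrp1 and Ppp3ca missed the threshold when any 1 of the 6 libraries was left out, B6 CD8 replicates 1, 2 and 3 giving edgeR adjusted P of 0.0924, 0.0841 and 0.0752 for Rasgrp1 and 0.0976, 0.0568 and 0.0684 for Ppp3ca. CD8.2 replicates 1, 2 and 3 gave 0.107, 0.14 and 0.102 for Rasgrp1 and 0.0535, 0.138 and 0.0913 for Ppp3ca. Ubash3b missed it without B6 CD8 replicate 3 (0.0608) or CD8.2 replicate 1 (0.0832), 2 (0.0664) or 3 (0.0684). The count of members was 1 without B6 CD8 replicate 1 or 2, and 0 without CD8.2 replicate 1, 2 or 3, beside 3.21% to 4.12% of all genes. Without B6 CD8 replicate 3, Nck1 (log2 fold change 0.42, adjusted P = 0.0283) and Themis (0.36, 0.0419) passed as higher. The memory or activation markers given above had a mean sum of 1570 CPM in B6 CD8 and 1056 CPM in CD8.2, in cells that by the methods of the study were gated as CD44-negative. Of that list, Ly6c2 (log2 fold change −0.91, edgeR adjusted P = 0.000402) and Il2rb (−0.58, 0.00153) passed as lower in CD8.2. Cd44, Cd69, Cxcr3, Eomes and Gzmb did not pass. NK cell markers had a mean sum of 536 and 414 CPM, and every CD8.2 sample was below every B6 CD8 sample for both sums. B cell sums had a mean of 71.2 and 113 CPM and myeloid sums 83.4 and 90.5 CPM, with overlap between the groups, and of those lists Ms4a1, Cr2, Cd79a and Lyz2 were higher and Itgax lower in CD8.2. The part of these markers in the result was not tested. Values of Rasgrp1 were lower in CD8 Dual than in B6 mice in helper and in cytotoxic cells, and strain and library number cannot be told apart.

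The difference between the lineage effects of the strains, CD8.1 against CD8.2 less B6 CD4 against B6 CD8, was tested as an interaction. By the quasi-likelihood test of edgeR, adjusted in the same way, 0 of the 44 members passed, beside 1.87% of all genes, 4 had an unadjusted P under 0.05 (13.3% of all genes), DESeq2 called 2 (3.13%) and limma-voom 0 (1.73%). Those 4, named after their values were seen, were Grap (−0.38), Txk (−0.38), Ubash3b (0.41) and Sh2d2a (0.36), with edgeR adjusted P of 0.124, 0.0846, 0.207 and 0.345. Without CD8.2 replicate 3 the count was also 0, beside 1.23% of all genes. Without CD8.1 replicate 1, 5 members passed, beside 10.1% of all genes: Txk (−0.39, adjusted P = 0.0218), Grap (−0.37, 0.0449), Ppp3cb (−0.30, 0.0499), Sh2d2a (0.50, 0.00464) and Nfatc1 (0.38, 0.0382). Of the members given with all sample values, Tec differed by −0.28 (−0.58 to 0.0067), Themis by −0.23 (−0.52 to 0.055), Ptpn22 by 0.13 (−0.13 to 0.39), Sla2 by 0.12 (−0.15 to 0.39) and Orai1 by 0.030 (−0.32 to 0.38).

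A wider list of 84 other genes of the pathway, with genes of the phosphoinositide and calcium arms among them, held 81 genes that passed the filter on low counts. In B6, 26 (32.1%) passed, 13 in each direction, beside 23.1% of all genes (11.4% higher and 11.7% lower). Between CD8.1 and CD8.2, 32 (39.5%) passed, 18 higher in CD8.1 and 14 lower, beside 28.7% of all genes (14.9% and 13.8%). That count was 37 without CD8.1 replicate 1 (37.4% of all genes) and 25 without CD8.2 replicate 3 (19.6%). Nedd4, a HECT ubiquitin ligase, was at 10.7, 2.76 and 7.15 CPM in B6 CD4 samples, 79.8, 83.8 and 103 in B6 CD8 samples, 5.39, 7.70 and 3.75 in CD8.1 samples and 61.0, 61.1 and 61.2 in CD8.2 samples. It was lower in all helper samples than in all cytotoxic samples, by a log2 fold change of −3.70 (SE 0.304, edgeR adjusted P = 2.01e-07) in B6 and −3.44 (SE 0.309, edgeR adjusted P = 7.17e-07) in CD8 Dual, and was the only gene of the wider list past the limits of the study in either comparison. Trat1, the adaptor TRIM that associates with the receptor, was at 74.0, 86.4 and 79.4 CPM in B6 CD4 samples, 16.1, 18.7 and 17.8 in B6 CD8 samples, 73.8, 60.1 and 57.5 in CD8.1 samples and 13.9, 16.1 and 15.5 in CD8.2 samples. It was higher in every helper sample, by 2.19 (SE 0.108, edgeR adjusted P = 4.96e-10) and 2.07 (SE 0.109, edgeR adjusted P = 1.37e-09). Rcan3, of the calcineurin regulator family, was higher in helper cells by 1.64 (SE 0.0938, edgeR adjusted P = 2.45e-09) and 1.40 (SE 0.0932, edgeR adjusted P = 2.24e-08). In B6, Plcg2 (−0.93), the phospholipase best known from B cells, and Ppp3cc (−0.88), a calcineurin subunit, were lower in helper cells. Ppp3cc also passed as lower in CD8.1 than CD8.2 cells, at −0.52 to −0.39 over the fits without 1 library. Plcg2 did not pass there (edgeR adjusted P = 0.101). It did with the replicate number as a block (−0.50, 0.0253) or without CD8.2 replicate 3 (−0.68, 0.0356).

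In CD8 Dual, Ptprj, a receptor phosphatase also named CD148, was higher in CD8.1 than CD8.2 cells by 1.62 (SE 0.262, edgeR adjusted P = 0.000273). Rnf128, the ubiquitin ligase GRAIL, passed with an edgeR adjusted P of 0.0496 at levels of 0.668, 0.575 and 0.522 CPM in CD8.1 and 0.128, 0 and 0.292 CPM in CD8.2, close to the limit of 3 counts. That call was lost without CD8.1 replicate 1 (adjusted P = 0.0877), 2 (0.103) or 3 (0.0782), or CD8.2 replicate 1 (0.147) or 2 (0.131), by the DESeq2 Wald test (0.0518) and in a fit of CD8.1 and CD8.2 alone (0.0571). Between CD8.1 and B6 CD4, 15 of the 81 genes (18.5%) passed, 4 higher and 11 lower in CD8.1, beside 12.8% of all genes (6.94% higher and 5.82% lower). That count was 6 without B6 CD4 replicate 1 (5.69% of all genes), 9 without B6 CD4 replicate 2 (6.5%), 5 without CD8.1 replicate 2 (6.32%), 26 without CD8.1 replicate 1 (22.1%) and 5 in a fit of the 2 groups alone (5.34%). Ptprj was higher by 1.30 (SE 0.256, edgeR adjusted P = 0.00496). The 3 inositol trisphosphate receptors, which release calcium from the endoplasmic reticulum, were all lower in CD8.1: Itpr1 by −0.71, Itpr2 by −0.58 and Itpr3 by −0.56, with edgeR adjusted P of 0.00175, 0.00403 and 0.0162. The call of Itpr3 was lost without B6 CD4 replicate 1 (adjusted P = 0.0786), B6 CD4 replicate 2 (0.0623) or CD8.1 replicate 2 (0.0578). Ptprcap, which binds CD45, was lower by −0.63 (SE 0.144, edgeR adjusted P = 0.0109). This call was lost without CD8.1 replicate 2 (adjusted P = 0.0576) and in a fit of the 2 groups alone (0.0603). All annotated exon bases of Ptprcap lie in Coro1b or Rps6kb2, so that its counts are uncertain.

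Between CD8.2 and B6 CD8, 7 of the 81 genes (8.64%) passed, 1 higher and 6 lower, beside 7.94% of all genes (3.29% higher and 4.66% lower), and the DESeq2 Wald test called 11 (11.3% of all genes), a fit with no filter 12 (6.8%) and a fit of the 2 groups alone 20 (20.3%). Itpr1 was lower by −0.55 (SE 0.118, edgeR adjusted P = 0.0114). The call was lost without B6 CD8 replicate 1 (adjusted P = 0.0574), B6 CD8 replicate 2 (0.0537) or CD8.2 replicate 2 (0.0518). Tespa1, an adaptor that binds the inositol trisphosphate receptors, was higher by 0.37 (SE 0.0702, edgeR adjusted P = 0.00539). Rapgef1 (−0.42), a Rap exchange factor, Nfat5 (−0.34), the osmotic stress NFAT, and Pik3cd (−0.33), the lymphocyte phosphoinositide kinase, were lower, with edgeR adjusted P of 0.0316, 0.0453 and 0.0427. Rapgef1 was lost without B6 CD8 replicate 1 (0.12) or 2 (0.126) or CD8.2 replicate 1 (0.0606), 2 (0.12) or 3 (0.107). Nfat5 was lost without any 1 library, at 0.123, 0.135 and 0.0872 without B6 CD8 replicates 1, 2 and 3 and 0.102, 0.13 and 0.155 without those of CD8.2. Pik3cd was lost without B6 CD8 replicate 1 (0.163) or 2 (0.128) or CD8.2 replicate 1 (0.0853), 2 (0.138) or 3 (0.126). The count of 7 was 1 without B6 CD8 replicate 1 or 2 or CD8.2 replicate 2, 3 without CD8.2 replicate 1 and 2 without CD8.2 replicate 3, beside 3.21% to 4.12% of all genes. In the interaction, 0 of the 81 genes passed by edgeR's test, beside 1.87% of all genes, 13 had an unadjusted P under 0.05 (13.3% of all genes), DESeq2 called 2 (3.13%) and limma-voom 0 (1.73%). The count was 10 without CD8.1 replicate 1 (10.1% of all genes), 0 without CD8.2 replicate 3 (1.23%) and 1 without CD8.2 replicate 2 (1.49%; Ptprj, 1.54, adjusted P = 0.0199).

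Tec, Ptpn22, Sla2 and Orai1 are the 4 members that passed in both lineage comparisons with a fold of at least 1.5, and the 250 bases before the RefSeq start of each are shown so that the sequences can be set beside the values. They come from a set of RefSeq promoters on build GRCm38.p6, and 35 of the 44 members have a promoter in the set used here. Tec lies at chr5:72868449-72868698 on the minus strand, Ptpn22 at chr3:103859545-103859794 on the plus strand, Sla2 at chr2:156887222-156887471 on the minus strand and Orai1 at chr5:123014824-123015073 on the plus strand. Both strands were searched for a RUNX core (TGTGGT, or ACCACA on the other strand), which 14% of 32851 promoter windows of the same length held, and a TCF/LEF core (CTTTGA, or TCAAAG on the other strand), which 13.8% held. Tec held 1 TCF/LEF core, 143 bases before that start, and Sla2 held 1 RUNX core as its reverse complement, 11 bases before that start, while the windows shown for Ptpn22, which has 2 promoters in the table of which 1 is shown, and for Orai1 held neither string. The GENCODE start of Tec (72868483) lies inside its window and that of Sla2 (156887192) lies downstream of the RefSeq start (156887221). Matches are in capitals, no match of one motif overlapped a match of the other, and a match of letters is not evidence of binding. G and C made up 68.4%, 49.2%, 57.6% and 70.8% of the windows of Tec, Ptpn22, Sla2 and Orai1, each written 5′ to 3′ on its own strand.
Tec: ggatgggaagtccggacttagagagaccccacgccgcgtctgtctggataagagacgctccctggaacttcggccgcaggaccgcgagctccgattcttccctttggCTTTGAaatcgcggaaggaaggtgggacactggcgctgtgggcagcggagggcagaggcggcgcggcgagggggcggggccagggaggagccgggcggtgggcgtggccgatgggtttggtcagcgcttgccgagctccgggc
Ptpn22: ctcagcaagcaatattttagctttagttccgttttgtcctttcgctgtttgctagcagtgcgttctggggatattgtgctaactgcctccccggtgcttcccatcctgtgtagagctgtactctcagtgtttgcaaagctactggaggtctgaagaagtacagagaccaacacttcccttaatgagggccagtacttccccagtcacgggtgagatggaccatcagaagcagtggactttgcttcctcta
Sla2: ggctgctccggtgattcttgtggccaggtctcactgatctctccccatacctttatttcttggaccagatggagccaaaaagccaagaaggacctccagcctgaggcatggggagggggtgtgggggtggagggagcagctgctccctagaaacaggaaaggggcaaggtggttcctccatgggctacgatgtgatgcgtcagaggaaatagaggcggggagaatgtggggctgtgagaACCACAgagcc
Orai1: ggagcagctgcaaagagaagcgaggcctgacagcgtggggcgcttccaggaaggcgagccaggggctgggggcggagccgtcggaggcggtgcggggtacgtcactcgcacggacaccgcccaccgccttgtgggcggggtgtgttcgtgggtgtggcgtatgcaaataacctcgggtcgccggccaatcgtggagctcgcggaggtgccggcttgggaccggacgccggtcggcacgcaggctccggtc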

How the data were processed

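The deposited values are read counts per gene for 12 samples, and the submitters' processing notes name STAR, RSEM and limma with mouse build mm10 (no versions given). The members and lists were chosen with earlier results of these data known. Genes were kept by filterByExpr (minimum count 10), normalized by TMM and tested in edgeR 4.0.16 with a quasi-likelihood fit of the 4 groups over all 12 samples, with Benjamini-Hochberg adjustment over all 13118 genes. The design was tested on simulated data. Values of every sample were given for Lck, Fyn, Zap70, Lat, Lcp2, Themis and Ptprc whatever their result, and for members that passed with a fold of at least 1.5 in a pairwise comparison or that passed in the interaction. Of the other pathway genes, up to 5 with the largest absolute fold among those that passed were named per comparison. Alternatives were DESeq2 1.42.0 (size factors or Wald test), limma-voom 3.58.1, other filters and call rules, only the groups compared, a replicate block, and each library left out. Replicate numbers were checked by correlating residuals: in B6, samples of the same number correlated at 0.126, 0.138 and 0.257, so that the block is given beside the B6 results that it changes. The pairing of B6 samples was inferred from these values alone. Depth and the limit of 3 counts are given in the report. Exon lengths and shared bases came from GENCODE M21 (GRCm38), in which 43749 of 49585 gene identifiers had the same version. R 4.3.3, Python 3.11.15 and matplotlib 3.10.9 were used.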

Additional observations from a re-analysis of the deposited data

How the results depend on the processing

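Leaving out 1 library at a time gave 10 to 13 members called in B6 CD4 against B6 CD8, 13 to 25 in CD8.1 against CD8.2, 3 to 12 in CD8.1 against B6 CD4, 0 to 2 in CD8.2 against B6 CD8 and 0 to 5 in the interaction, and for the other pathway genes 21 to 24, 22 to 37, 5 to 26, 1 to 7 and 0 to 10. The shares of all genes were 18% to 20.1%, 19.6% to 37.4%, 5.69% to 22.1%, 3.21% to 5.97% and 1.23% to 10.1%. With a fold of at least 1.5 the counts of members were 5, 5, 0, 0 and those of the other genes 8, 12, 3, 0 in the 4 comparisons in that order, and with a fold above 5 and an unadjusted P under 0.05 they were 0, 0, 0, 0 and 1, 1, 0, 0 (edgeR; the report gives the unadjusted and other tools' counts). With only the groups compared in the fit, CD8.1 against B6 CD4 gave 1 member and 5 other genes (5.34% of all genes), and CD8.2 against B6 CD8 gave 16 and 20 (20.3%). In CD8.2 against B6 CD8 the DESeq2 Wald test gave 6 and 11, no filter on low counts 8 and 12, and a filter at 1 CPM 5 members. In the interaction the DESeq2 Wald test gave 2 members and 2 other genes, and DESeq2 size factors, a filter at 1 CPM, no filter and the replicate block each gave 1 other gene.

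The replicate block within B6 gave 15 members called, beside 24.3% of all genes. It added Lat and Ptprc, given in the report, and Itpr3 of the other genes (log2 fold change −0.28, edgeR adjusted P = 0.0318, against 0.177 without the block), and changed no other call in B6 among the genes named. In the other pairs of groups, samples of the same number correlated at −0.00388, 0.0905 and 0.119 between CD8.1 and CD8.2, −0.0316, −0.109 and −0.197 between B6 CD4 and CD8.1, and −0.0332, −0.00411 and −0.101 between B6 CD8 and CD8.2. With the block, 17, 6, 3 and 0 members were called in CD8.1 against CD8.2, CD8.1 against B6 CD4, CD8.2 against B6 CD8 and the interaction, beside 31.3%, 11.4%, 6.72% and 2.52% of all genes. Of the calls given in the report for other pathway genes, those lost with it were Rnf128 between CD8.1 and CD8.2 (edgeR adjusted P = 0.0584) and Nfat5 (0.0657) and Pik3cd (0.0626) between CD8.2 and B6 CD8.

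Over the 44 members and the alternatives in normalization, tool, filter, samples and block, the fold rules aside, 0 log2 fold changes that had been called reversed, and the side of the threshold held for 549 of 572 values in B6, 533 of 572 in CD8.1 against CD8.2, 548 of 572 in CD8.1 against B6 CD4, 528 of 572 in CD8.2 against B6 CD8 and 785 of 792 in the interaction. The cause of these changes was not tested.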
